A study of Rattus norvegicus with 12 samples.

Results

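The genes described here were 9 genes of the osteoblast lineage and of bone matrix, chosen by name: the transcription factors Runx2 and Sp7, the enzyme Alpl, the matrix proteins Spp1, Ibsp and Bglap, and the late, osteocyte-related genes Dmp1, Phex and Mepe. A gene was measured where the array annotation gave a probe set (a group of probes for 1 transcript) that gene's symbol alone. This held for 7 of the 9 genes, each with exactly 1 probe set, out of 14217 genes measured in this way. In all, 31042 probe sets were tested, many of them without a symbol. Runx2 and Sp7 had 0 such probe sets and are not described by any value. The 4 groups were female Sprague-Dawley rats whose left femur was cut through at the midshaft and held by an external fixator with a gap of 1.5 mm, and the hematoma between the fragments was taken with forceps on day 3. OSR rats were 52 weeks old with a semi-rigid fixator (offset between fixator and bone of 15 mm), OR rats were 52 weeks old with a rigid fixator (7.5 mm), YSR rats were 12 weeks old with a semi-rigid fixator (15 mm) and YR rats were 12 weeks old with a rigid fixator (7.5 mm). Each group gave 3 arrays, each of them hybridized with RNA pooled from 3 animals, so that 12 arrays were compared and their number limited the precision of every value. Every group had an osteotomy, so that the comparisons are between fracture hematomas, and intact bone was not analysed here.

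Osteoblasts form from mesenchymal precursors in an order. Runx2 and then Sp7 commit the cell, alkaline phosphatase (Alpl) and type I collagen follow, bone sialoprotein (Ibsp) comes with the onset of mineralization, and osteocalcin (Bglap) marks the mature osteoblast. Dmp1, Phex and Mepe are products of late osteoblasts and of osteocytes, the cells buried in bone, and act on mineral deposition and phosphate handling. Osteopontin (Spp1) binds mineral and cells and is made by osteoblasts, but also abundantly by macrophages, which are numerous in a fracture hematoma. Woven bone is laid down mostly after the stage sampled here, and fragments of old bone and marrow can lie in the gap.

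The promoters of the 3 matrix protein genes are shown first. They are RefSeq sequences of the rat assembly GRCr8 from 250 bases before to 50 bases after the start of each gene, written 5′ to 3′ on the gene's strand. Capitals mark matches, on either strand, to TGTGGT or TGCGGT (core letters bound by Runx proteins), to CCAAT and to TATAAA. Spp1 lies at chr14:5619755-5620054, Ibsp at chr14:5757193-5757492 and Bglap at chr2:176137269-176137568, all on the minus strand.
Ibsp: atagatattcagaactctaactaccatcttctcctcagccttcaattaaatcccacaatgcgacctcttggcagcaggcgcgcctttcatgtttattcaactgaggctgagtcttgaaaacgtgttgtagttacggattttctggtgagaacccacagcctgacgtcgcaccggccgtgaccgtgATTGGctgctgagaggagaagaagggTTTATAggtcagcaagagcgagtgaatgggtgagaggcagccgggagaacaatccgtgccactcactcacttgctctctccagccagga
Bglap: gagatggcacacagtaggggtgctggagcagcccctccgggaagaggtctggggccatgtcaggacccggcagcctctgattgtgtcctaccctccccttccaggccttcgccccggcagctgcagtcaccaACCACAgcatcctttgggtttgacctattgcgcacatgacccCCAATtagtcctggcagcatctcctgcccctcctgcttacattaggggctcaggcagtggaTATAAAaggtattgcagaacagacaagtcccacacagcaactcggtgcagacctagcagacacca
Spp1: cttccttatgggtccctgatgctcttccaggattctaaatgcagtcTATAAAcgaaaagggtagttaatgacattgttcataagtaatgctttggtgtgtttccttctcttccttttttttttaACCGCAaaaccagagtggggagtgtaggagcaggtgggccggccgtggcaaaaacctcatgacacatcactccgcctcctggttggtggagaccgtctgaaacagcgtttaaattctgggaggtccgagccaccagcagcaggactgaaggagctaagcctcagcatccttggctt
The Bglap window held ACCACA (the reverse complement of TGTGGT) at 118 bases before the start, CCAAT at 76 and TATAAA at 15 bases before it. The Ibsp window held ATTGG at 65 and TTTATA at 39 bases before the start, and neither TGTGGT nor TGCGGT. The Spp1 window held TATAAA at 204 and ACCGCA at 126 bases before the start. TGTGGT stood in 17.3% of the 33469 promoters of the same length, TGCGGT in 6.39%, CCAAT in 37.5% and TATAAA in 14.2%, so that a match describes letters and not a site. Spp1, Mepe, Ibsp, Dmp1 and Dspp are neighbouring protein-coding genes on chromosome 14 in this order, a cluster of mineral-binding matrix proteins, and 4 of these 5 genes belong to those described here.

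Signals are the linear intensities of 1-colour rat arrays, and differences were computed on their log2 values. As a mark of background, each array carried 27 probe sets for Bacillus transcripts, the brightest of which read between 26.5 and 80.9 on the 12 arrays. Between 64.6% and 79.9% of all probe sets read above that mark. A pair of arrays stood apart in the ratio of 3′ to 5′ signal, which rises as RNA degrades. The log2 ratio of the 3′ to the 5′ probe set of Gapdh was 6.69 on YSR 1 and 2.95 on OR 1, between 1.02 and 1.59 on the YR arrays, and between 0.33 and 0.49 on the rest. The labelled tissue was a mixture. Of the 7 erythroid genes measured (red cell precursors), 6 read above the bacterial mark on all 12 arrays, as did 9 of 9 macrophage genes and 4 of 6 neutrophil genes, whereas only 1 of 7 cartilage genes did. In such bulk samples, fewer cells of a type and less RNA per cell cannot be told apart.

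Over all 7 measured genes, none was called in any comparison by limma at an adjusted p under 0.05. Ibsp alone had an unadjusted p under 0.05, in the comparison of semi-rigid with rigid fixation and in that of YSR with YR. The plot of signals by array shows how unevenly the genes were measured: Spp1 was bright on every array, Ibsp ranged from background to a high signal, and Bglap and Phex were mostly below the bacterial mark.

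**Figure D1:**
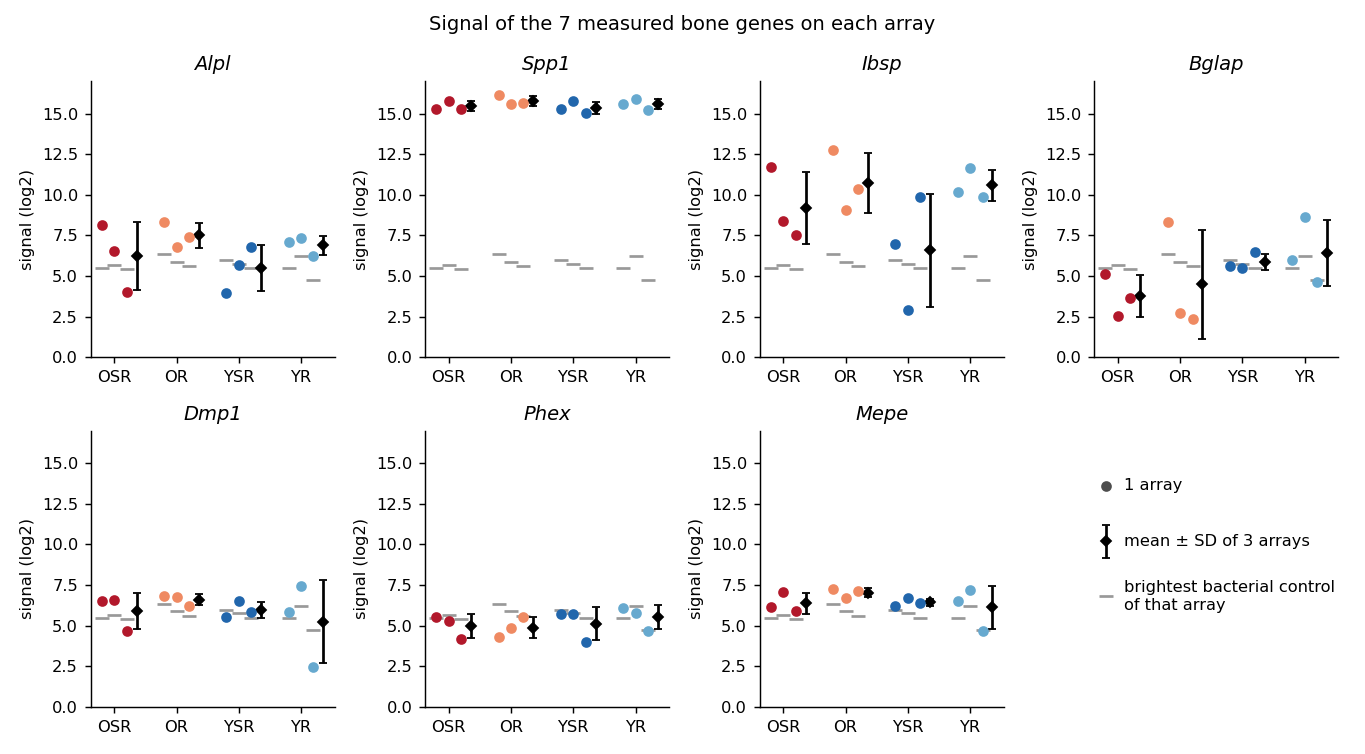
Signal (log2) of the 7 measured genes on each of the 12 arrays, by group (OSR, OR, YSR, YR). Coloured points are arrays in replicate order, black diamonds and bars are the mean ± SD of 3 arrays, and grey dashes are the brightest bacterial control of each array. Spp1 lies above its control marks on 12 of 12 arrays, Ibsp on 11, Bglap on 4 and Phex on 2.

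Alpl, the alkaline phosphatase that frees phosphate for mineral, was the earliest marker of the lineage that was measured. Its signal was 282.4, 91.9 and 16 in OSR, 325.2, 112.0 and 171.1 in OR, 15.8, 51.0 and 112.4 in YSR, and 136.6, 159.8 and 75.2 in YR. It was above the bacterial mark on 9 of 12 arrays, not on OSR 3, YSR 1 and YSR 2, and the groups overlapped. The log2 mean was 6.22 ± 2.09 in OSR, 7.52 ± 0.77 in OR, 5.49 ± 1.42 in YSR and 6.88 ± 0.57 in YR (SD, n = 3 each). Semi-rigid fixation was lower than rigid fixation by a log2 difference of -1.35 ± 0.66 (SE, limma adjusted p = 0.845), and the difference was -1.30 ± 0.93 for OSR minus OR (limma adjusted p = 0.912) and -1.39 ± 0.93 for YSR minus YR (limma adjusted p = 0.991). Single arrays weighed heavily: OSR minus OR was -0.19 without OSR 3 and -2.26 without OSR 1, and YSR minus YR was -0.64 without YSR 1. The old minus young difference was 0.69 ± 0.66 (limma adjusted p = 0.803), and it was 0.21 without OSR 1, 0.31 without YSR 1, 1.24 without OSR 3 and 0.10 without YSR 1 and OR 1. None of these passed the threshold given the spread between arrays.

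Spp1 (osteopontin) was far above the bacterial mark on every array. It read 39248.1, 57234.9 and 39564.0 in OSR, 71296.8, 49262.2 and 50742.0 in OR, 38951.2, 56229.4 and 34028.5 in YSR, and 49997.1, 59716.0 and 38459.8 in YR. The highest array was 2.1-fold above the lowest. Its SD of 0.32 was still higher than that of 89.5% of the 95 probe sets with a mean within 1 log2 unit of its own. The old minus young difference was 0.15 ± 0.17 and the semi-rigid minus rigid difference -0.27 ± 0.17 on the log2 scale (SE, limma adjusted p = 0.839 and 0.872). After quantile normalization they were 0.00 and -0.03. Spp1 was among the brightest probe sets, and this step gives the brightest ranks nearly the same values on every array. The normalized differences therefore cannot show whether the groups differed in Spp1. Whether signals this bright were compressed on the arrays was not tested. Macrophage genes were bright in the same tissue: the summed signal of 9 of them was 81412 to 108723 in OSR, 76383 to 108302 in OR, 101042 to 129024 in YSR and 104086 to 122035 in YR, and 9 of 9 had a negative old minus young difference. How much of the Spp1 signal came from which cell type was not tested.

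Ibsp, the bone sialoprotein that binds hydroxyapatite and is largely restricted to mineralizing tissue, varied most. Its signal was 3320.8, 334.7 and 183.2 in OSR, 6857.9, 541.5 and 1306.4 in OR, 124.9, 7.6 and 915.1 in YSR, and 1135.6, 3266.4 and 944.2 in YR. YSR 2 was the only array at which Ibsp was under the bacterial mark, and with this value raised to the mark of that array the highest array was at least 126-fold above the lowest. The SD over the 12 arrays was 2.63 on the log2 scale. With every probe set raised to the mark where it was lower, it was 2.07, higher than that of 99.9% of the 7036 probe sets with a mean within 1 log2 unit of its own. In each of the 4 groups 1 array was more than 2-fold above the others: OSR 1, OR 1, YSR 3 and YR 2.

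The geometric mean of Ibsp was 588.3 in OSR, 1693 in OR, 95.41 in YSR and 1519 in YR, with SDs of 2.21, 1.86, 3.47 and 0.97 on the log2 scale in the same groups. Semi-rigid fixation was lower than rigid fixation by a log2 difference of -2.76 ± 1.07 (SE), at an unadjusted p under 0.05 that did not hold after adjustment (limma adjusted p = 0.845). Of the 31042 probe sets, 5.73% had an unadjusted p under 0.05 in this comparison and 0% were called. Every YSR array was below every YR array, with a difference of -3.99 ± 1.51 (limma adjusted p = 0.991), a pattern that 3.65% of all probe sets showed in the same direction. The nearest arrays of these groups were close, 915.1 in YSR and 944.2 in YR, and without YSR 2 the difference was -2.17. The Gapdh log2 ratio also differed, at 1.02 to 1.59 on the YR arrays, 0.33 on YSR 2, 0.42 on YSR 3 and 6.69 on YSR 1. The part of RNA quality in the YSR minus YR difference was not tested. In old rats the fixation groups overlapped and the OSR minus OR difference was -1.52 ± 1.51 (limma adjusted p = 0.925), which was -0.52 without OR 1. The difference between these fixation effects, the interaction of age and fixation, was 2.47 ± 2.14 (limma adjusted p = 0.99), and 0.64 without YSR 2.

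By age, Ibsp had an old minus young difference of 1.39 ± 1.07 on the log2 scale (SE, limma adjusted p = 0.748), and 0.48 without YSR 2. Under semi-rigid fixation OSR minus YSR was 2.62 ± 1.51 (limma adjusted p = 0.959), and 0.80 without YSR 2. Under rigid fixation OR minus YR was 0.16 ± 1.51 (limma adjusted p = 0.989), and this sign turned to -0.85 without OR 1, an array of high Gapdh ratio. The order of the group means was thus OR, YR, OSR and YSR, and the arrays of each neighbouring pair in this order overlapped.

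**Figure D2:**
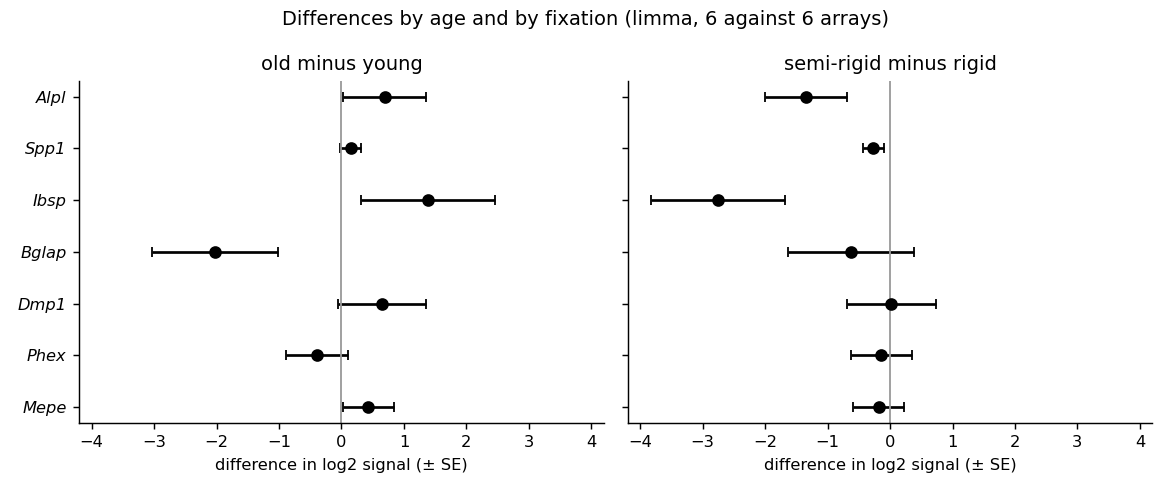
Differences in log2 signal (x axis) of the 7 measured genes for old minus young (left) and semi-rigid minus rigid (right), 6 arrays against 6. Points are limma estimates and bars are ± SE. Ibsp has the most negative fixation difference, -2.76, the Bglap age difference of -2.02 rests on signals mostly under the bacterial mark, and none passed the adjusted threshold.

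Alpl and Ibsp were high and low on much the same arrays. OR 1 was the highest array and OSR 1 the next for both genes, and YSR 1, YSR 2 and OSR 3 were the 3 lowest for both. The 3 lowest arrays were all semi-rigid, and Alpl lay under the bacterial mark on each of them. Of the highest and lowest arrays, OR 1 and YSR 1 were those of highest Gapdh ratio (2.95 and 6.69). The parts of fixation and of RNA quality in this order were not tested. The scatter of the 12 arrays shows both genes side by side. Erythroid genes were low on part of the same arrays, and their summed signal was 54589, 25527 and 31019 in OSR, 36996, 62630 and 40979 in OR, 19734, 8590 and 44693 in YSR, and 29925, 49561 and 28577 in YR. YSR 1 and YSR 2 had the lowest erythroid sums, but OR 1, the highest array for Ibsp, had a lower erythroid sum than OR 2 and OR 3. The median difference of the 7 erythroid genes was -0.82 for semi-rigid minus rigid fixation (7 of 7 negative) and -0.91 for YSR minus YR (7 of 7 negative), with 0 of 7 called by limma in either. An unadjusted p under 0.05 was reached by 0 and 1 of them, against 5.73% and 4.37% of all probe sets. Without YSR 1 and OR 1 these medians were -0.76 and -0.74. Their part in the Ibsp values was not tested.

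**Figure D3:**
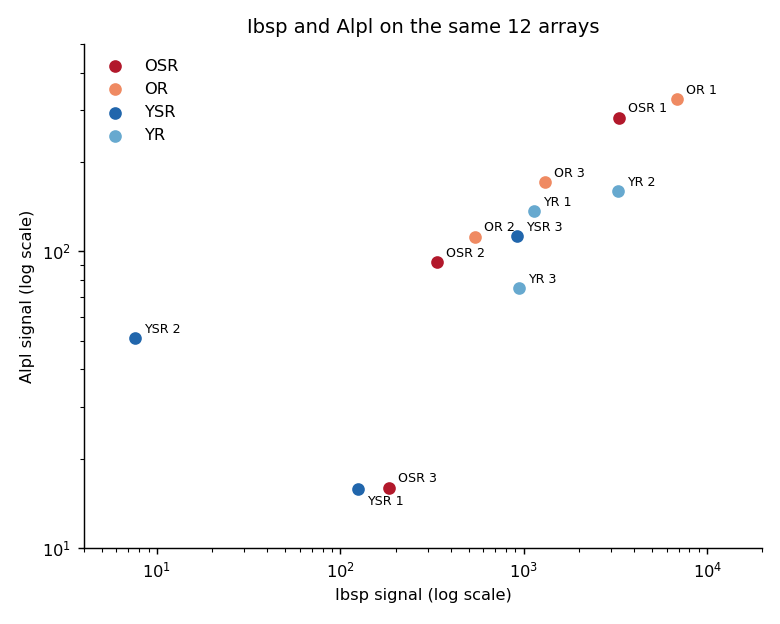
Signal of Ibsp (x axis, log scale) against that of Alpl (y axis, log scale) on the same 12 arrays, coloured by group and labelled with group and replicate. OR 1 and OSR 1 lie at the top right (Ibsp 6857.9 and 3320.8), and OSR 3, YSR 1 and YSR 2 hold the 3 lowest values of both genes.

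The search for genes like Ibsp covered 10084 genes, Ibsp included, whose highest group mean reached the median of all probe sets. A gene could thus enter through a single group in which it was high. Those whose log2 signal was most like that of Ibsp over the 12 arrays were Tspan8 (Pearson r = 0.90, Spearman rho = 0.79), Tle2 (r = 0.88, rho = 0.71), Maco1 (r = 0.88, rho = 0.74), Rsad2 (r = 0.87, rho = 0.73) and Rph3al (r = 0.87, rho = 0.73). These values describe 12 arrays that share 4 groups, and were picked as the highest of many. None of the 5 is on the bone lists.

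Bglap (osteocalcin), the late product of the mature osteoblast, was close to background in most samples. Its signal was 35.2, 5.8 and 12.4 in OSR, 323.3, 6.7 and 5.1 in OR, 50, 45.6 and 87.3 in YSR, and 63.2, 400.0 and 25.2 in YR. It was above the bacterial mark on only 4 arrays, OR 1, YSR 3, YR 1 and YR 2, and on none of the OSR arrays, where the level has therefore only an upper bound. YR 2 and OR 1 stood far above all other arrays and were also among the 3 highest arrays for Ibsp. OR 1 and YR 2 carried the highest bacterial marks as well, 80.9 and 74.6.

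The log2 mean of Bglap was 3.77 ± 1.31 in OSR, 4.48 ± 3.35 in OR, 5.87 ± 0.51 in YSR and 6.43 ± 2.03 in YR (SD, n = 3 each). The old minus young difference was -2.02 ± 1.01 (SE, limma adjusted p = 0.613), where 0.00644% of all probe sets were called. Its size came from values under the bacterial mark: it was -1.13 with a pseudocount of 16, and the difference of means was -0.19 once signals under the mark were raised to it. The split by fixation was -2.10 ± 1.43 for OSR minus YSR (limma adjusted p = 0.959) and -1.95 ± 1.43 for OR minus YR (limma adjusted p = 0.764). The OR minus YR difference was -3.88 without OR 1, -0.84 without YR 2, -0.89 without OR 3 and -1.08 without OR 2. Every OSR array was below every YSR array, as were 4.9% of all probe sets, but 5 of these 6 values lay under the bacterial mark. The semi-rigid minus rigid difference was -0.63 ± 1.01 (limma adjusted p = 0.944) and turned to 0.33 without OR 1.

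Dmp1, a mineral-nucleating protein of the osteocyte, had a signal of 90.6, 97.4 and 25.2 in OSR, 113.5, 108.5 and 73.4 in OR, 46.1, 90.7 and 57.8 in YSR, and 57.9, 174.8 and 5.4 in YR. It was above the bacterial mark on 9 arrays, with the highest and the lowest array both in YR. The old minus young difference was 0.65 ± 0.71 and the semi-rigid minus rigid difference 0.02 ± 0.71 (SE, limma adjusted p = 0.823 and 0.997), and without YR 3 the first was -0.05 and the second -0.68. No direction can be given for this gene.

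Mepe, a matrix phosphoglycoprotein encoded next to Spp1, had a signal of 71.0, 137.2 and 59.2 in OSR, 151.5, 104.6 and 142.1 in OR, 73.6, 103.1 and 84.3 in YSR, and 92.7, 145.4 and 25.4 in YR. It exceeded the bacterial mark on 11 arrays, and YR held both an array near the top and the lowest one. The old minus young difference was 0.43 ± 0.41 and the semi-rigid minus rigid difference -0.18 ± 0.41 (SE, limma adjusted p = 0.801 and 0.966). Without YR 3 the first was 0.06. YR 3 was the lowest array for Dmp1 as well as for Mepe, and OR 1 and YR 2 were the 2 highest arrays for both. The bacterial mark was likewise lowest on YR 3 (26.5) and highest on OR 1 and YR 2 (80.9 and 74.6). The part of array background in this order was not tested.

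Phex, the osteocyte endopeptidase whose loss causes phosphate wasting, had a signal of 45.8, 38.9 and 18.0 in OSR, 19.4, 28.6 and 46.1 in OR, 52.8, 52.1 and 15.7 in YSR, and 69.3, 54.2 and 25.5 in YR. Only OSR 1 and YR 1 were above the bacterial mark. The old minus young difference was -0.39 ± 0.49 and the semi-rigid minus rigid difference -0.14 ± 0.49 (SE, limma adjusted p = 0.85 and 0.978). At these signals Phex was not detectable above the background of most arrays, which does not show that it was absent.

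Counted by direction, 5 of the 7 measured genes had a positive and 2 a negative old minus young difference, and 1 had a positive and 6 a negative semi-rigid minus rigid difference. For OSR minus OR the counts were 1 positive and 6 negative, and for YSR minus YR 2 positive and 5 negative. The groups share their arrays between these comparisons, so that they are not separate evidence. In each of the 7 comparisons, 0 of the 7 genes were called by limma. The methods' test of pairs of groups at its own thresholds (a p below 0.05 with no adjustment, and a change of more than 2-fold) also named 0 of 7 in each of the 4 pairs, against 1.52% of all probe sets for OSR minus YSR, 2.56% for OR minus YR, 1.5% for OSR minus OR and 1.68% for YSR minus YR. In limma, an unadjusted p under 0.05 was reached by 0 of the 7 genes for age (8.59% of all probe sets), 1 for fixation (5.73%), 0 for OSR minus YSR (4.36%), 0 for OR minus YR (8.34%), 0 for OSR minus OR (5.26%), 1 for YSR minus YR (4.37%) and 0 for the interaction (3.8%). The share of all probe sets called at an adjusted p was 0.00644% for age, 0% for fixation, 0.00322% for OSR minus YSR, 0.00322% for OR minus YR, and 0% for OSR minus OR, YSR minus YR and the interaction.

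Since Runx2 and Sp7 were not measured, other early regulators of the lineage were described from a list of 14 genes, of which 9 were measured. Atf4, a transcription factor that drives amino acid supply in osteoblasts, averaged 12.65 ± 0.05 in OSR, 12.82 ± 0.10 in OR, 12.60 ± 0.13 in YSR and 12.73 ± 0.07 in YR on the log2 scale (SD, n = 3 each). Cbfb, the partner subunit of Runx proteins, averaged 11.61 ± 0.01 in OSR, 11.78 ± 0.13 in OR, 11.74 ± 0.05 in YSR and 11.81 ± 0.15 in YR. Runx1, the family member of blood cells, averaged 11.31 ± 0.47 in OSR, 11.25 ± 0.56 in OR, 10.96 ± 0.44 in YSR and 11.21 ± 0.54 in YR. All 3 are widely expressed in blood cells too. Of the 9 genes, 8 had a negative semi-rigid minus rigid difference, with a median of -0.13 against 0.00 for all probe sets, and 7 had a positive old minus young difference, with a median of 0.12 against 0.02. None of the 9 was called in either comparison by limma. An unadjusted p under 0.05 was reached by 0 of them for fixation (5.73% of all probe sets) and 1 for age (8.59%).

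The other bone matrix and mineralization genes, 16 beside the genes above, included the genes of type I collagen. Col1a2 averaged 14.74 ± 0.30 in OSR, 15.07 ± 0.22 in OR, 14.70 ± 0.16 in YSR and 14.61 ± 0.16 in YR on the log2 scale, and Col1a1 averaged 14.53 ± 0.42 in OSR, 14.54 ± 0.19 in OR, 14.58 ± 0.08 in YSR and 14.14 ± 0.19 in YR. Fibroblasts also make this collagen. Serpinh1, the collagen chaperone, averaged 13.77 ± 0.12 in OSR, 13.65 ± 0.19 in OR, 13.63 ± 0.25 in YSR and 13.53 ± 0.40 in YR. These 3 genes had group SDs of at most 0.42, against 0.97 in YR to 3.47 in YSR for Ibsp. The YSR value includes YSR 2, where Ibsp lay under the bacterial mark, and Ibsp was dimmer than these genes.

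In OR minus YR, all 16 of these genes had a positive difference, with a median of 0.32 against 0.04 for all probe sets, and 6 had an unadjusted p under 0.05 (8.34% of all probe sets did, in either direction) but 0 were called by limma. Without YSR 1 and OR 1, 13 of the 16 were positive, with a median of 0.21 against 0.03 for all probe sets. The OR arrays then left had Gapdh log2 ratios of 0.43 and 0.46, and the YR arrays 1.02 to 1.59. Age and RNA quality cannot be told apart for OR minus YR in fits without these arrays. Over all arrays, Mgp, an inhibitor of calcification, had the largest difference of the 16 at 0.95 ± 0.27 (SE, limma adjusted p = 0.341). Bgn, a small proteoglycan of bone and soft matrix, had 0.73 ± 0.20 (limma adjusted p = 0.318). Both were picked after their values had been seen. In OSR minus YSR the same list had 10 positive and 6 negative differences and a median of 0.05. For semi-rigid minus rigid fixation the list had 7 positive and 9 negative differences, with a median of -0.10 against 0.00 for all probe sets. Fibroblast genes stood beside it in OR minus YR, 7 of 9 positive with a median of 0.60, as did osteoclast genes, 5 of 6 positive with a median of 1.19, and adipocyte genes, 5 of 6 positive with a median of 2.03, while 8 of 8 skeletal muscle genes were negative with a median of -2.12. None of these genes was called by limma. An unadjusted p under 0.05 was reached by 6 fibroblast, 4 osteoclast, 4 adipocyte and 1 muscle genes (8.34% of all probe sets). Without YSR 1 and OR 1 the medians were 0.53, 0.85, 2.19 and -3.33 in the same order of lists. Their part in the collagen values was not tested.

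**Figure D4:**
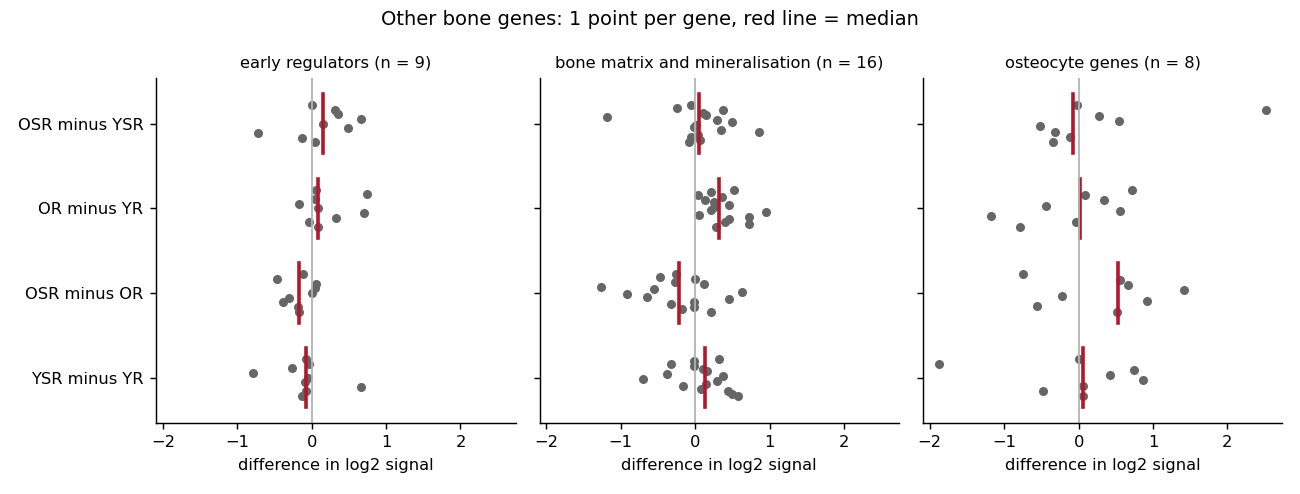
Difference in log2 signal (x axis) of other bone genes in 4 pairs of groups (rows), 1 point per gene at its limma estimate, for 9 early regulators, 16 matrix and mineralization genes and 8 osteocyte genes. Red lines are medians. In OR minus YR every matrix gene lies above 0, with a median of 0.32.

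Of the other osteocyte genes, 8 were measured, and Sost, the osteocyte inhibitor of Wnt signalling, was above the bacterial mark on 1 array only (it was picked after its values had been seen). The brightest were genes that other cells express as well. Pdpn (podoplanin, also on stromal cells and macrophages) averaged 12.04 ± 0.42 in OSR, 11.12 ± 0.33 in OR, 12.35 ± 0.49 in YSR and 12.29 ± 0.20 in YR on the log2 scale. Its OR minus YR difference was -1.17 ± 0.26 (SE, limma adjusted p = 0.223). Fam20c, the secretory pathway kinase, averaged 11.56 ± 0.43 in OSR, 11.05 ± 0.26 in OR, 11.90 ± 0.47 in YSR and 11.84 ± 0.21 in YR, with an OR minus YR difference of -0.79 ± 0.25 (limma adjusted p = 0.389). Sfrp4, a secreted Wnt antagonist, averaged 9.16 ± 0.59 in OSR, 9.38 ± 0.62 in OR, 9.68 ± 0.40 in YSR and 8.83 ± 0.27 in YR, with an OR minus YR difference of 0.55 ± 0.34 (limma adjusted p = 0.712). In OR minus YR the list had 4 positive and 4 negative differences, with a median of 0.02 against 0.04 for all probe sets. For semi-rigid minus rigid fixation the list had 5 positive and 3 negative differences, with a median of 0.30 against 0.00 for all probe sets. By limma 0 of them were called there, and 2 had an unadjusted p under 0.05 (5.73% of all probe sets). The list had 5 positive and 3 negative old minus young differences, with a median of 0.03 against 0.02 for all probe sets.

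Osteoclasts, the cells that resorb bone and fragments of it, were described by 6 measured genes of a list of 10. Oscar, Dcstamp, Ocstamp and Atp6v0d2 had no probe set with their symbol alone. Acp5 (tartrate-resistant acid phosphatase) averaged 11.07 ± 0.18 in OSR, 11.75 ± 0.59 in OR, 10.76 ± 0.25 in YSR and 10.25 ± 0.09 in YR on the log2 scale. Its difference was 0.90 ± 0.17 for old minus young (SE, limma adjusted p = 0.129) and 1.50 ± 0.24 for OR minus YR (limma adjusted p = 0.146). Ctsk, the collagen-degrading protease, averaged 12.78 ± 0.22 in OSR, 13.18 ± 0.65 in OR, 12.78 ± 0.45 in YSR and 12.30 ± 0.02 in YR, with a difference of 0.44 ± 0.20 for old minus young (limma adjusted p = 0.572) and 0.88 ± 0.28 for OR minus YR (limma adjusted p = 0.401). Itgb3, the integrin beta 3 chain shared with platelets, averaged 11.83 ± 0.84 in OSR, 12.59 ± 0.34 in OR, 10.61 ± 0.85 in YSR and 10.70 ± 1.37 in YR, with an old minus young difference of 1.55 ± 0.43 (limma adjusted p = 0.296). Slc9b2, a sodium-proton exchanger of osteoclasts picked after its values had been seen, averaged 7.80 ± 0.97 in OSR, 9.56 ± 0.30 in OR, 6.49 ± 1.21 in YSR and 5.73 ± 0.62 in YR. Its old minus young difference was 2.57 ± 0.42 (limma adjusted p = 0.0954). This difference passed the threshold without OSR 3 (limma adjusted p = 0.0278) but in none of the other settings run. It was, for example, at a limma adjusted p of 0.279 without OR 2, and the methods' test gave 0.42 after adjustment. The YR mean of Slc9b2 lay near the bacterial marks of the YR arrays, 4.73 to 6.22 on the log2 scale. For old minus young, 4 of the 6 genes were positive and 2 negative, Calcr at -0.38 and Nfatc1 at -0.12, with a median of 0.67 against 0.02 for all probe sets. The summed signal of the list was 12184 to 16637 in OSR, 16954 to 27342 in OR, 9884 to 13900 in YSR and 7891 to 12188 in YR. Whether bone fragments lay in single pools was not tested.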

How the data were processed

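Hematoma RNA of day 3 was hybridized to 12 Affymetrix rat arrays with 1 colour. The intensity values deposited by the authors were on a linear scale, covered 31099 probe sets, and had been brought to the same trimmed mean on each array. GCOS 1.2 is named in the processing notes. The PLIER summaries of the published methods were not used here. Signals below 1 were set to 1 before log2 was taken. After removal of 57 control probe sets, 31042 were tested. By the platform annotation, 20832 probe sets carried 1 symbol, 436 carried several and 9831 carried none. For 20764 of those with 1 symbol, the gene identifier was found in the rat gene list (GRCr8).

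A group means model over all 12 arrays was fitted with limma 3.58.1 (R 4.3.3, package data.table in version 1.17.8), using lmFit and then eBayes with its trend option. Comparisons were old minus young, semi-rigid minus rigid, the 4 pairs that differ in 1 factor, and the interaction, (OSR minus OR) minus (YSR minus YR). P-values were adjusted by Benjamini-Hochberg over the 31042 probe sets, and a value under 0.05 was a call. The test was checked on simulated data. Tables and plots were made in Python 3.11.15 (matplotlib 3.10.9, numpy 2.4.6, pandas 2.3.3).

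The genes, gene lists, tests and alternatives were chosen with earlier results of these data known. The rule for naming took, beside the 9 genes, the 3 brightest genes of a list, any list gene called, and the 5 genes most like Ibsp and Runx2 (which had no probe set). Of these, the genes of the bone and osteoclast lists are given. Mgp, Bgn, Sost, Slc9b2, Calcr and Nfatc1 fell outside the rule and were picked after their values had been seen. Lists held early regulators, bone matrix and mineralization, osteocyte, osteoclast, macrophage, neutrophil, erythroid, fibroblast, cartilage, skeletal muscle and adipocyte genes. Alternatives were quantile normalization, a pseudocount of 16, leaving out probe sets with a mean under the median of 7.16, no trend, only the arrays of a pair (for pairs), the methods' test (its 2-way form for age, fixation and the interaction), a replicate block, the mean over probe sets of a gene, and leaving out each array or the 2 arrays of highest Gapdh ratio (YSR 1 and OR 1). For the gene lists and named list genes, alternatives were chosen after seeing the data, as was raising signals to the bacterial mark.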

Additional observations from a re-analysis of the deposited data

How the results depend on the processing

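The count of genes called was 0 in each of the 7 comparisons under every alternative run, the methods' test after Benjamini-Hochberg included, and with each array left out. The filter on dim probe sets left 2 of the 7 genes, Spp1 and Ibsp, and each gene had 1 probe set, so that the mean over probe sets gave the same values. Same-numbered arrays were not paired: deviations from the group means had a median correlation of 0.0193 over 18 same-numbered pairs and of 0.0196 over 36 others, and the fit with the replicate block called 0 genes in each comparison. Of the log2 differences reported for the 7 genes, 3 turned sign under alternatives other than leaving out 1 array. Without the 2 arrays of highest Gapdh ratio, Bglap was 0.39 for semi-rigid minus rigid and Ibsp -0.85 for OR minus YR, and Dmp1 for semi-rigid minus rigid was -0.03 after quantile normalization and -0.14 with the pseudocount. Leaving out 1 array at a time, the semi-rigid minus rigid difference lay between -1.17 and 0.33 for Bglap, -0.68 and 0.57 for Dmp1, -0.35 and 0.15 for Phex and -0.54 and 0.09 for Mepe, the old minus young difference of Dmp1 between -0.05 and 1.21, and OR minus YR of Ibsp between -0.85 and 0.98. The other differences reported for the 7 genes kept their sign with each array left out, such as semi-rigid minus rigid fixation for Ibsp (-3.57 to -1.85) and Alpl (-1.83 to -0.79), and old minus young for Bglap (-2.99 to -1.47). So did the OR minus YR differences of Mgp (0.89 to 1.01), Bgn (0.59 to 0.89), Pdpn (-1.27 to -0.98), Fam20c (-0.94 to -0.67) and Sfrp4 (0.20 to 0.76). For Acp5 and Slc9b2 some settings passed the threshold, OR minus YR of Acp5 without OR 2 (1.77, adjusted p = 0.048) and of Slc9b2 without YSR 2 (adjusted p = 0.0497) or with only the arrays of the pair (3.83, adjusted p = 0.0157). In the other settings run, OR minus YR of both genes did not pass. Without YR 1 the limma adjusted p was 0.41 for both. For Slc9b2 it was 0.471 without OR 2, and the methods' test gave 0.367 after adjustment. The cause of these changes was not tested. Signals near the bacterial mark limit what can be said of Alpl, Bglap, Phex, Dmp1 and Mepe, and of Slc9b2 in YR. For Alpl, the arrays under the mark (OSR 3, YSR 1 and YSR 2) were all semi-rigid.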

Other observations

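Genes of other cell types are given here beside the bone genes, with 0 list genes called for old minus young (limma, adjusted p). For old minus young, where 8.59% of all probe sets had an unadjusted p under 0.05, 5 of 6 neutrophil genes had a positive difference with a median of 1.70 on the log2 scale and 5 had an unadjusted p under 0.05, and 7 of 7 erythroid genes were positive with a median of 1.02 and 2 at an unadjusted p under 0.05. All 9 macrophage genes were negative with a median of -0.48, 5 of them at an unadjusted p under 0.05. All 8 skeletal muscle genes were negative with a median of -1.47, and their summed signal ranged from 2740 to 90081 in OSR, 1936 to 45729 in OR, 22673 to 49604 in YSR and 32700 to 70932 in YR. Cartilage genes were dim, with a summed signal of 572 to 1131 in OSR, 587 to 842 in OR, 548 to 869 in YSR and 550.2 to 1524 in YR.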
